A study of Mus musculus with 2 samples.

Results

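The 7 genes described here, *Prox1*, *Lyve1*, *Mmrn1*, *Reln*, *Thy1*, *Maf* and *Nr2f2*, were chosen by name as genes of the lymphatic endothelium, and both libraries listed each of them among the 27254 genes of the series. The series held Drop-seq profiles, in which droplets capture single cells and unique molecular identifiers (UMIs) count messenger RNA molecules, from whole lungs of 2 wild type female C57BL/6J mice at postnatal day 1. Each mouse gave 1 library, named Batch 1 and Batch 2, and the series had no treated, mutant or differently aged group. Levels were followed in the 8003 cells whose mitochondrial transcripts made up at most 10% of UMIs, 2388 from Batch 1 and 5615 from Batch 2. Depth per cell ran from 616 to 114913 UMIs (medians 1387 in Batch 1 and 2014 in Batch 2), and no cell barcode occurred in both libraries.

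Lymphatic vessels drain fluid, proteins and leukocytes from tissue, and in the lung they take part in clearing liquid around birth. Their endothelium arises largely from embryonic veins: the nuclear receptor encoded by *Nr2f2* (COUP-TFII) acts in venous cells and with the homeobox factor PROX1, which switches on and maintains lymphatic identity, and the basic leucine zipper factor encoded by *Maf* acts downstream of growth factor signaling in these cells. LYVE1 is a cell surface receptor for hyaluronan and THY1 is a glycolipid-anchored surface glycoprotein. Multimerin 1 (*Mmrn1*) and reelin (*Reln*) are secreted glycoproteins of the matrix.

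In the mm10 assembly, *Prox1* lies on the minus strand of chromosome 1 from 190118035 to 190170714, *Lyve1* on the minus strand of chromosome 7 from 110850607 to 110863239, *Mmrn1* on the plus strand of chromosome 6 from 60924976 to 60989378 and *Reln* on the minus strand of chromosome 5 from 21884454 to 22344702. *Thy1* lies on the plus strand of chromosome 9 from 44043384 to 44048579, *Maf* on the minus strand of chromosome 8 from 115682942 to 115707794 and *Nr2f2* on the minus strand of chromosome 7 from 70351944 to 70366735. Counts are over exons. An antisense gene that the tables also count, *Gm15655*, overlaps *Maf* and held 160 UMIs against 5199 for *Maf*; the sources used here do not say how strand was treated in counting.

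RefSeq promoter windows of 250 bases before to 50 bases after the start (GRCm38.p6) were found for *Prox1*, *Mmrn1*, *Reln* and *Nr2f2*, and not for *Lyve1*, *Thy1* and *Maf*. The windows of the 3 genes below are shown because these genes were scarce outside the lymphatic-like cells. They lie at chr1:190170778-190171077 on the minus strand for *Prox1* (the further upstream of its 2 windows), at chr6:60944067-60944366 on the plus strand for *Mmrn1* and at chr5:22344656-22344955 on the minus strand for *Reln*. The *Mmrn1* window lies within the gene, downstream of the gene start at 60924976 given above, and so belongs to an internal start. Capitals mark the SOX-type core ACAATG on either strand.
Prox1: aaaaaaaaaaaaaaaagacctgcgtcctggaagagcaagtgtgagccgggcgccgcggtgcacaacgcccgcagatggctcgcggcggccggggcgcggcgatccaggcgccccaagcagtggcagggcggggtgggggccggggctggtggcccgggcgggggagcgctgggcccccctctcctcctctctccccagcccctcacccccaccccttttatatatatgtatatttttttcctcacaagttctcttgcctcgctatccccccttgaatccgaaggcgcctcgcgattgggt
Mmrn1: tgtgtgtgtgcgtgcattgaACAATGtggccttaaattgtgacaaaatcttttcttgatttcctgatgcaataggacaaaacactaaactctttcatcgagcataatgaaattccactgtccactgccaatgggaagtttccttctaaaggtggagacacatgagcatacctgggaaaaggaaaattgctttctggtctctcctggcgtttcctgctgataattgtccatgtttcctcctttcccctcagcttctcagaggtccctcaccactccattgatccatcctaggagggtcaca
Reln: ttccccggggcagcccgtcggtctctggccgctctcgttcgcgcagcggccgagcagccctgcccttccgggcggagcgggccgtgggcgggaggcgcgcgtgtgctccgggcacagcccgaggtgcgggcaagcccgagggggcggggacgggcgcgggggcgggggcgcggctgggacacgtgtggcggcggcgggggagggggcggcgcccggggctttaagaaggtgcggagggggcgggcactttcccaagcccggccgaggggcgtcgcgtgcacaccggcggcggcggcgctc
The 3 windows are unlike in base composition, with 64.3% G and C for *Prox1*, 44.3% for *Mmrn1* and 80.7% for *Reln*. ACAATG occurred once, in the *Mmrn1* window, and in 12.6% of the 32851 promoter windows of the table. The hexamer AGGTCA bound by nuclear receptors such as NR2F2, held by 16.3% of all windows, and the MAF-type motif TGCTGAC, held by 4.67%, were not found in any window of these genes on either strand. The match is a description of the letters only.

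To locate the genes without using them, cells were clustered on other genes, leaving out the 7 genes and a list of 31 further lymphatic and vascular genes. Of 41 clusters, 35 took names from marker lists and fell into 24 classes, and 6 clusters with 497 cells stayed unnamed. One cluster of 45 cells, 19 from Batch 1 and 26 from Batch 2, was the lymphatic endothelium-like class, 0.562% of the cells kept. It was named from its markers, which stayed in the clustering, so the levels of *Flt4* and *Ccl21a* describe the class and do not test its name. The receptor gene *Flt4* (VEGFR3) was found in 33 of the 45 cells, at 402 CPM (UMIs of the gene scaled to 1000000 UMIs of the summed cells) in Batch 1 and 679 in Batch 2. The chemokine gene *Ccl21a* was found in 43 cells, at 14975 and 5921 CPM, although reads of *Ccl21a*, *Ccl21b* and their near-identical copies *Gm13304*, *Gm21541* and *Gm10591* may be split between them. The pan-endothelial gene *Cdh5* stood at 332 and 370 CPM. Lymphatic-like cells were deeper than most, with a median of 3109 UMIs against 1792 over all cells. Alveolar type 2-like cells, an epithelial class with a median of 3239 UMIs, therefore served as a reference of like depth. They are not a blank for every gene, as *Prox1* was called higher in them in the test of classes below.

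*Prox1* was the rarest of the 3 transcription factors. It was found in 103 cells, 25 of them lymphatic-like, where its level was 524 CPM in Batch 1 and 559 CPM in Batch 2. The next class with at least 10 cells in each library was an unnamed cluster of 91 cells led by the cell division genes *Hist1h2ap*, *Hist1h2ao* and *Cenpf* (the cycling cluster), at 192 and 40.9 CPM. No named class outside the lymphatic-like cells exceeded 17.2 CPM of *Prox1* in a library holding at least 10 of its cells.

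The remaining 78 cells with *Prox1* were spread thinly. Alveolar type 2-like cells held 18 of them, 1.97% of 912 cells (95% exact binomial interval 1.17 to 3.10%), at 6.39 and 5.55 CPM. The cells mixed between alveolar type 1 and type 2 held 13, all in Batch 2. General capillary-like cells held 13, a share of 0.907% at a median depth of 1563 UMIs, against 3239 for alveolar type 2-like cells. With each cell thinned to 600 UMIs, general capillary-like cells gave 5 of 1434 (0.349%) and alveolar type 2-like cells 3 of 912 (0.329%). Ciliated and secretory airway cells gave 4 of 95 cells at a median depth of 5975 UMIs. These levels rest on single UMIs for most cells, and 1 UMI in a cell cannot be told from free RNA.

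*Maf* and *Nr2f2*, in contrast, were widespread. *Maf* was found in 2084 cells, and its 36 lymphatic-like cells held 4.56% of its 5199 UMIs. Matrix fibroblast-like cells, the largest class, held 62.4% of them. The *Maf* level was highest in macrophage-like cells, at 4773 CPM in Batch 1 and 1491 in Batch 2. Lymphatic-like cells came next at 1206 and 1444 CPM, and their range overlapped that of matrix fibroblast-like cells at 1356 and 901 CPM. Macrophage-like cells lay above both classes in each library, but Batch 1 gave only 21 of these cells. In Batch 2 they were nearly level with the lymphatic-like cells, at 1491 against 1444 CPM. Neutrophil-like cells differed between the libraries, at 1007 CPM in the 11 cells of Batch 1 and 42.8 CPM in the 92 cells of Batch 2. In the 4 other endothelial classes *Maf* stayed between 0 and 54.8 CPM.

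*Nr2f2* was found in 2284 cells. Pericyte-like cells (962 and 611 CPM), matrix fibroblast-like cells (803 and 657 CPM) and venous endothelium-like cells (971 and 460 CPM) had overlapping ranges. Lymphatic-like cells (524 and 455 CPM) overlapped the venous cells but lay below the pericyte-like and matrix fibroblast-like cells in both libraries. Venous cells were the only blood endothelial class at this level: general capillary-like cells stood at 80.02 and 99.5 CPM, aerocyte capillary-like cells (the capillary cells facing the air sacs) at 81.8 and 87.6 CPM, and arterial cells at 54.0 and 8.60 CPM. Matrix fibroblast-like cells held 48.5% of all *Nr2f2* UMIs and lymphatic-like cells 29 of the cells with a UMI. No *Nr2f2* UMI was found in the 39 T, natural killer or innate lymphoid-like cells, which allows up to 7.69% of them to hold a UMI (3 cells) and sets no limit on cells expressing the gene.

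*Lyve1* marked the blood endothelium of these newborn lungs as strongly as the lymphatic-like cells. It was found in 2606 cells, and only 40 of them, 1.53% (interval 1.10 to 2.08%), were lymphatic-like. General capillary-like cells alone held 56.2% of its 29402 UMIs. In Batch 1 its level was 2743 CPM in lymphatic-like, 3034 in general capillary-like, 3724 in arterial, 2582 in venous and 2356 in aerocyte capillary-like cells. In Batch 2 the same classes stood at 6084, 5613, 4278, 6602 and 4220 CPM. The order of the 5 classes changed between the libraries, each neighbor in the order overlapped the next, and all 5 were higher in Batch 2.

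Outside the endothelium *Lyve1* reached at most 740 CPM in every named class holding at least 10 cells in each library. Erythroid-like cells came first at 347 and 740 CPM. Unnamed clusters held it too. The cycling cluster stood at 1264 and 2878 CPM. Its marker score was 3.95 for cycling, a state and not a cell type. Its cell type scores were under the 1 needed for a name, at 0.786 for lymphatic endothelium, 0.752 for general capillary and 0.701 for B lymphocyte. A cluster with alveolar type 1 and aerocyte capillary markers, led by *Ager* and *Hopx*, stood at 844 and 4535 CPM (7 cells in Batch 2), and one with matrix fibroblast and general capillary markers, led by *Ogn*, *Pid1* and *Mkx*, at 1764 and 4803 CPM (9 cells in Batch 1). Macrophage-like cells, among which LYVE1-bearing subsets are known in many tissues, stood at 112 and 261 CPM and gave a UMI in 14 of 66 cells, 21.2% at a median depth of 1708. Alveolar type 2-like cells gave a UMI in 107 of 912 cells, 11.7% at a median depth of 3239.

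The surface glycoprotein gene *Thy1* had the fewest cells. It was found in 40: 23 lymphatic-like, 9 T, natural killer or innate lymphoid-like, 4 of the cycling cluster, 2 mesothelium-like, 1 venous and 1 general capillary-like. Its lymphatic-like level was 262 CPM in Batch 1 and 309 CPM in Batch 2. THY1 is a classical surface marker of T lymphocytes, and that class held *Thy1* at 56.2 CPM in the 9 cells of Batch 1 (1 UMI) and 167 CPM in the 30 cells of Batch 2 (14 UMIs). No *Thy1* UMI was found in a fibroblast class. For the 1859 matrix fibroblast-like cells, at a median depth of 1467 UMIs, a count of 0 allows up to 0.161% of cells with a UMI (3 cells), and for the 912 alveolar type 2-like cells, where none was found either, up to 0.329%. These limits concern cells with a UMI at this depth and not cells expressing the gene.

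The matrix gene *Mmrn1* was found in most lymphatic-like cells. A UMI occurred in 39 of the 45 lymphatic-like cells, 86.7% (interval 73.2 to 94.9%), at 1083 CPM in Batch 1 and 1117 CPM in Batch 2. These cells held 75.6% of its 254 UMIs. The cycling cluster held 21 UMIs in 5 cells. An unnamed cluster of 30 cells led by *Mcpt8*, *Pf4* and *Ppbp* held 14 UMIs in 3 cells; *Mcpt8* is a basophil protease, *Pf4* and *Ppbp* encode platelet chemokines, and multimerin 1 is also known from platelets. General capillary-like cells gave 11 cells of 1434, at 7.27 and 3.50 CPM, and alveolar type 2-like cells 1 of 912.

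*Reln* was found in 82 cells, 31 of them lymphatic-like, at 349 CPM in Batch 1 and 481 CPM in Batch 2. Its detection differed between the libraries, in 9 of 19 lymphatic-like cells of Batch 1 and 22 of 26 of Batch 2. Of the 51 cells outside, matrix fibroblast-like cells held 8, general capillary-like and alveolar type 2-like cells 7 each (6 of the alveolar cells in Batch 1), and the cycling cluster 5. Alveolar type 2-like cells gave 0.768% at about the same depth as the lymphatic-like cells, whose share was 68.9%.

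**Figure D1:**
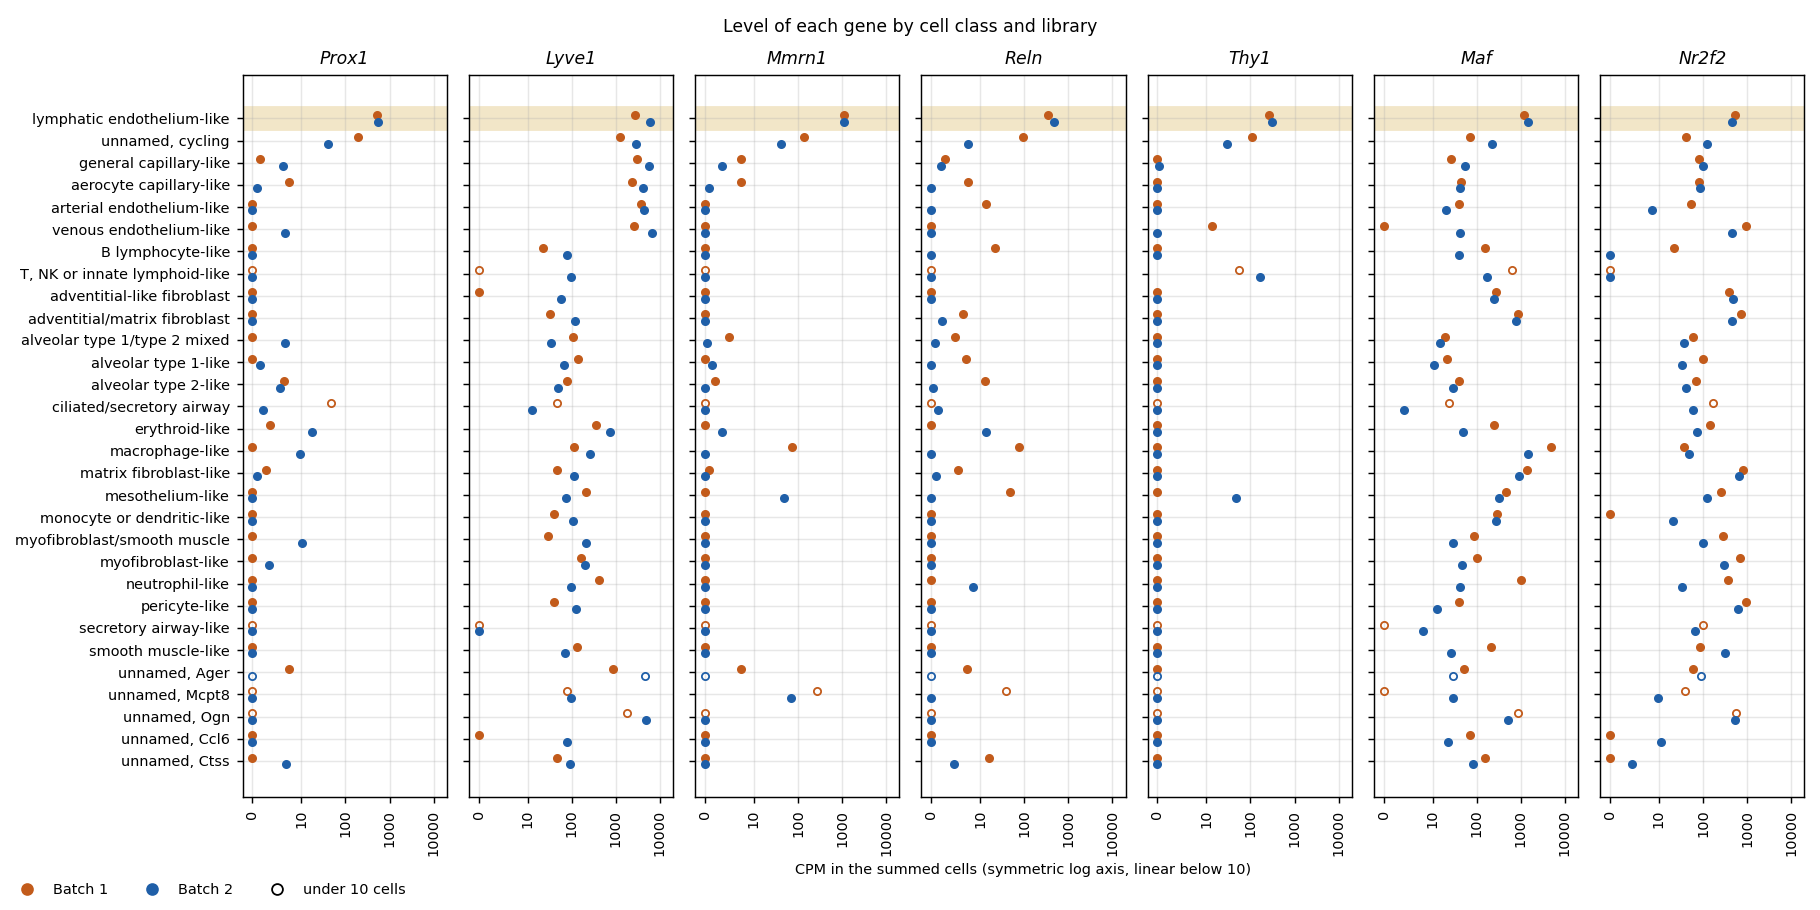
Level of each gene in CPM of the summed cells (horizontal, symmetric log axis) for each cell class (vertical) in Batch 1 (orange) and Batch 2 (blue); open circles are classes with fewer than 10 cells in that library. *Prox1*, *Mmrn1*, *Reln* and *Thy1* stand highest in the shaded lymphatic-like class in both libraries, whereas *Lyve1* is as high in the blood endothelial classes and *Maf* and *Nr2f2* reach fibroblast, macrophage or pericyte classes.

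Detection depends on depth, so each cell was thinned to 600 UMIs, which left out no cell. The share of lymphatic-like cells with a UMI then fell to 24.4% for *Prox1*, 26.7% for *Reln*, 17.8% for *Thy1*, 53.3% for *Mmrn1* and 80% for *Lyve1*, from 55.6, 68.9, 51.1, 86.7 and 88.9% before thinning. Thinned alveolar type 2-like cells stood at 0.329% for *Prox1*, 0.219% for *Reln* and 2.85% for *Lyve1*, with no cell for *Thy1* or *Mmrn1*.

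The lymphatic-like cells were compared with the 4 other endothelial classes (general capillary, aerocyte capillary, arterial and venous) on counts summed by class and library. *Mmrn1* gave 62 UMIs in the lymphatic-like sum of Batch 1 and 6 in the 971101 UMIs of the other classes, a CPM ratio of 175 (exact 95% counting interval 76.2 to 496), and 130 against 10 in Batch 2, a ratio of 489 (258 to 1044). For *Prox1* the ratios were 255 (64.6 to 2198, on 2 UMIs in the other classes) and 129 (76.2 to 227). For *Reln* they were 84.8 (28.4 to 341) and 421 (170 to 1348), and *Thy1* rested on 1 UMI in the other classes of each library. *Maf* was 43.4 times (27.4 to 70.4) and 30.1 times (24.4 to 37.1) higher, and *Nr2f2* 3.56 times (2.32 to 5.31) and 3.99 times (2.95 to 5.30). The *Lyve1* ratios lay on both sides of 1, at 0.928 (0.785 to 1.09) and 1.17 (1.08 to 1.26). Intervals cover counting error only.

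In a fit across all genes (edgeR quasi-likelihood test, class and library as terms, Benjamini-Hochberg adjustment), 6 of the 7 genes rose in the lymphatic-like class against the mean of the other endothelial classes, where 5.19% of the 6860 genes tested were called higher. *Maf* had a log2 change of 5.10 ± 0.37 (edgeR adjusted p = 7.18e-15) and *Nr2f2* of 2.19 ± 0.37 (edgeR adjusted p = 2.69e-05). The SE after ± was derived from the test statistic of the fit to the sums of all classes in the 2 libraries. The edgeR adjusted p was 6.56e-15 for *Mmrn1*, 1.45e-12 for *Prox1*, 5.51e-10 for *Reln* and 1.54e-08 for *Thy1*, whose fitted changes depend on the few UMIs of the other classes. *Lyve1* had a log2 change of 0.06 ± 0.35 (edgeR adjusted p = 1). The classes were drawn from the same cells, so these values are not independent evidence for the class. Their error is the residual spread of the class sums once class and library are fitted, pooled over all classes in the fit. It does not measure how the lymphatic-like cells, with 2 sums, vary between mice. DESeq2 did not call *Thy1* (adjusted p = 0.574).

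**Figure D2:**
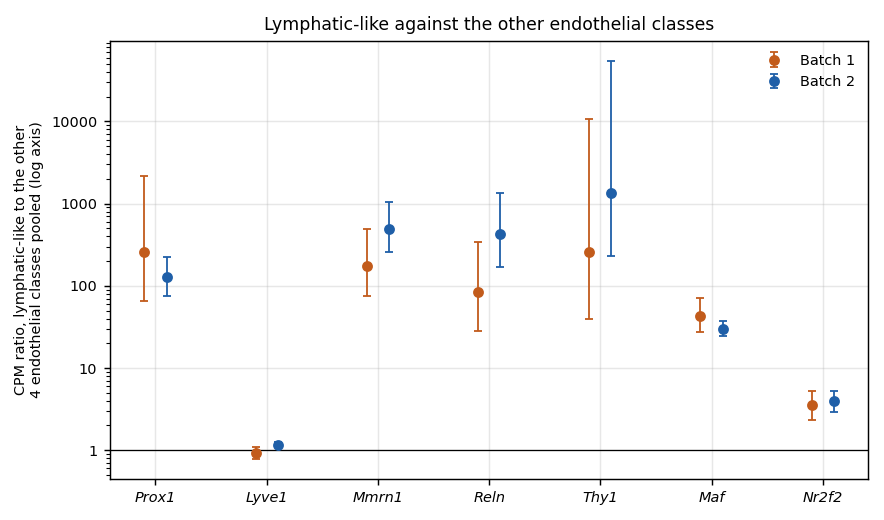
Ratio of CPM in the lymphatic-like cells to CPM in the other 4 endothelial classes pooled (vertical, log axis) for each gene in each library, with exact 95% counting intervals as bars and a line at 1. The *Lyve1* points lie at 0.928 and 1.17, the *Nr2f2* points at 3.56 and 3.99, and the other 5 genes lie at 30.1 or above.

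Of the 31 further lymphatic and vascular genes, 24 were tested. In the lymphatic-like class 4 rose and 9 fell, where 5.19% of all genes tested were called higher and 5.31% lower. The median log2 change was -0.62 against -0.20 over all genes. The 4 were *Nrp2*, a co-receptor for lymphatic growth factors (542 and 782 CPM against 40.2 and 30.8 in the other endothelial classes pooled, edgeR adjusted p = 5.03e-14), the gap junction gene *Gja1* (140 and 327 CPM against 21.6 and 15.3, edgeR adjusted p = 1.02e-08), the integrin gene *Itga9* (140 and 137 CPM against 5.15 and 13.2, edgeR adjusted p = 1.53e-05) and *Angpt2*, a TEK ligand (105 and 34.4 CPM against 15.4 and 12.6, edgeR adjusted p = 0.00600). The *Angpt2* level rested on 6 and 4 UMIs in the lymphatic-like sums. *Calcrl*, the receptor of adrenomedullin, fell most among the genes with a UMI in both lymphatic-like sums (69.9 and 68.7 CPM against 1439.6 and 1023, edgeR adjusted p = 1.33e-07). *Ramp2*, *Efnb2*, *S1pr1*, *Tek*, *Gata2*, *Klf2*, *Vegfc* and *Cd44* were the other 8 that fell, *Cd44* with no UMI in either lymphatic-like sum against 47.4 and 32.0 CPM. *Sox18*, a regulator of *Prox1*, did not pass the test (210 and 77.3 CPM against 188 and 72.4, edgeR adjusted p = 1).

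Outside the lymphatic-like class, each of the 20 named classes with at least 10 cells in each library was compared with the mean of the other 19, giving 140 combinations of gene and class. The test called 24 of them higher, 17.1%, where 13% of all combinations of genes and classes were called higher, and 19 lower, 13.6%, where 2.6% were. *Lyve1* rose in 5 classes, the 4 endothelial ones (general capillary-like log2 change 4.52 ± 0.22, SE, edgeR adjusted p = 8.74e-21) and erythroid-like cells (2.60 ± 0.29, edgeR adjusted p = 3.24e-09), and fell in 7. The call in erythroid-like cells depended in size on scaling by TMM (edgeR's correction for RNA composition), whose factors were 0.46 and 0.42 for these sums. Without it the median change of all genes in that contrast moved from 0.16 to -1.03 on the log2 scale, and that of *Lyve1* was 1.39 ± 0.33 (edgeR adjusted p = 0.00102). *Maf* rose in 8 classes and fell in 8, the latter including all 4 endothelial classes. Its rises were led by macrophage-like (4.69 ± 0.27, edgeR adjusted p = 1.27e-18) and matrix fibroblast-like cells (3.68 ± 0.24, edgeR adjusted p = 4.40e-17). Without TMM *Maf* rose in 6 classes and fell in 6, the erythroid-like, neutrophil-like, aerocyte capillary-like and venous calls being lost.

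*Nr2f2* rose in 6 classes: matrix fibroblast-like (2.79 ± 0.24, edgeR adjusted p = 1.91e-13), pericyte-like, venous, myofibroblast-like, adventitial-like and mixed adventitial and matrix fibroblasts. It fell in arterial cells (-2.97 ± 0.60, edgeR adjusted p = 0.000213) and 3 others. Of the 4 genes with few UMIs, *Prox1* had 3 calls (erythroid-like, on 6 UMIs, and the 2 classes with alveolar type 2 genes, on 22 and 16). *Mmrn1* had 1 call (general capillary-like, on 14 UMIs), *Thy1* 1 (mesothelium-like, on 2 UMIs) and *Reln* 0. The T, natural killer or innate lymphoid-like cells, with 15 *Thy1* UMIs in 9 cells, had too few cells in Batch 1 and were not tested. The unnamed cycling cluster, with 16 UMIs of *Thy1* and 25 of *Prox1*, was not tested either. The erythroid-like change of *Prox1* was 4.41 ± 1.06 (edgeR adjusted p = 0.00355) and 3.31 ± 1.00 without TMM (edgeR adjusted p = 0.00854), and DESeq2 did not call it (adjusted p = 0.0897).

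No single gene singled out the lymphatic-like cells. *Thy1* came closest, with 57.5% of its 40 cells in the class (interval 40.9 to 73.0%), then *Mmrn1* with 55.7% of 70 (43.3 to 67.6%), *Reln* with 37.8% of 82 (27.3 to 49.2%) and *Prox1* with 24.3% of 103 (16.4 to 33.7%). Of 15332 genes found in at least 20 cells, 6 had at least 50% of their cells in the class, 0.0391%, and *Thy1* and *Mmrn1* ranked 3 and 4 among them. *Maf*, *Lyve1* and *Nr2f2* had 1.73, 1.53 and 1.27% of their cells in the class.

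Pairs did better. A pair was taken to single out the class where at least 10 cells held a UMI of both genes and at least 90% of them were lymphatic-like, with at least 80% in each library. No pair of the 21 met this in the main classes. *Reln* with *Thy1* reached 90.5% over both libraries, 19 of 21 cells (69.6 to 98.8%), but only 3 of 4 cells in Batch 1 against 16 of 17 in Batch 2. *Mmrn1* with *Thy1* gave 21 of 24 cells, 87.5% (67.6 to 97.3%), and held at 5 of 6 and 16 of 18 in the libraries.

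In 9 pairs the lymphatic-like share was at least 80%, and they covered different parts of the class. *Mmrn1* with *Reln* found the most, 30 of the 45 lymphatic-like cells (66.7%), at a share of 81.1%, with 9 of 15 cells in Batch 1 and 21 of 22 in Batch 2. *Mmrn1* with *Nr2f2* found 28 of 45 at 82.4% and was alike in the libraries, with 11 of 13 and 17 of 21. *Prox1* with *Mmrn1* found 22 at 81.5%, and *Prox1* with *Reln* found 20 at 83.3%. *Prox1* with *Thy1* found 15 at 83.3%, *Thy1* with *Maf* 21 at 84.0% and *Thy1* with *Nr2f2* 17 at 85.0%.

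Pairs built on *Lyve1* depended on the partner. With *Thy1* the share was 76.7% (23 of 30 cells), with *Mmrn1* 60.3% (35 of 58), with *Reln* 58.0% (29 of 50) and with *Prox1* 37.9% (22 of 58). With *Maf* it was 8.23% of 413 cells and with *Nr2f2* 5.13% of 526. *Maf* with *Nr2f2*, both regulators known from the lymphatic lineage, was held by 1060 cells of which 26 (2.45%) were lymphatic-like, 748 were matrix fibroblast-like and 106 were of the mixed adventitial and matrix fibroblasts.

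**Figure D3:**
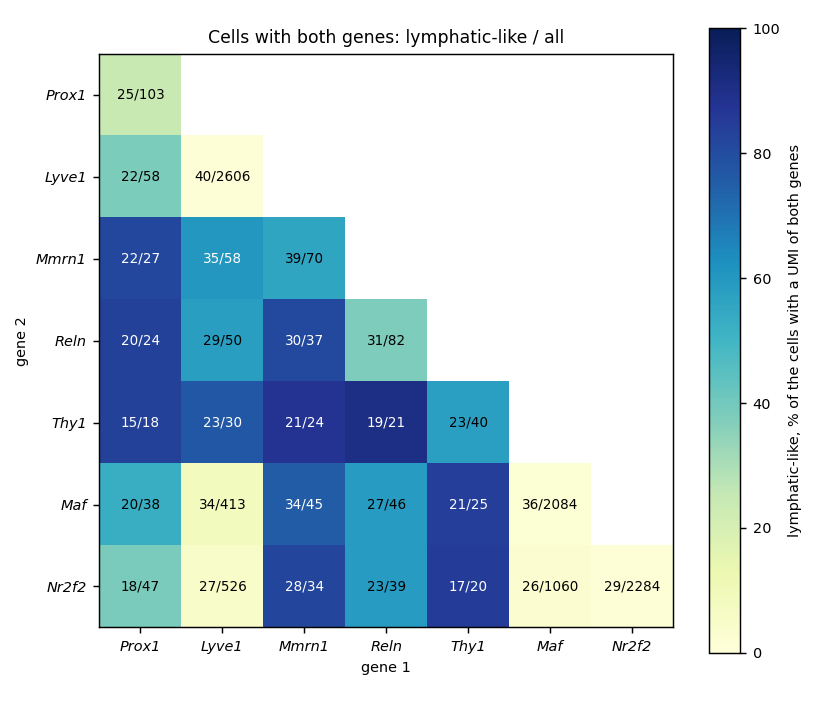
Each square gives the number of lymphatic-like cells over all cells with a UMI of both genes (diagonal: of the 1 gene), colored by the lymphatic-like percentage. Squares joining *Mmrn1*, *Reln*, *Thy1* or *Prox1* with each other are dark, with 19 of 21 cells for *Reln* with *Thy1*, and the square of *Maf* with *Nr2f2* is pale with 26 of 1060.

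A UMI of at least 2 of *Prox1*, *Mmrn1*, *Reln* and *Thy1*, the 4 genes found in the fewest cells, covered more of the class than any of the 9 pairs, at a lower share. Of the 45 lymphatic-like cells 14 held all 4, 11 held 3, 10 held 2, 9 held 1 and 1 held none. Of the 7867 cells outside both the class and the cycling cluster, 7715 held none, 147 held 1, 5 held 2 and no cell held 3 or 4. At least 2 of the 4 occurred in 45 cells in all, of which 35 (77.8%, interval 62.9 to 88.8%) were lymphatic-like.

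The 10 others comprised 5 cells of the cycling cluster and 5 cells of 5 other classes. Each of the 5 cycling cells held at least 3 of the 11 markers that named the lymphatic-like class, with 25 to 162 UMIs of them, and 2 held all 7 genes. One of these, from Batch 2, held 78 UMIs of *Lyve1*, 20 of *Maf*, 8 of *Mmrn1* and 7 of *Thy1* among its 9860 UMIs. Of the 5 cycling cells 1 was among the 5% of cells with the highest doublet scores, as were 2 of the other 5 cells. The 5 cells outside the cycling cluster held 0 to 11 UMIs of the naming markers.

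**Figure D4:**
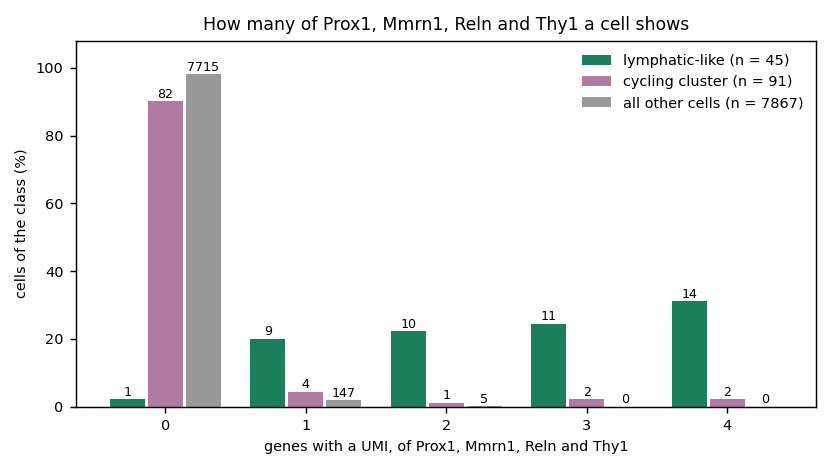
Percentage of cells (vertical) by how many of *Prox1*, *Mmrn1*, *Reln* and *Thy1* they hold (horizontal), for lymphatic-like cells, the cycling cluster and all other cells, with the number of cells above each bar. All 4 genes are held by 14 lymphatic-like cells, 2 cells of the cycling cluster and 0 other cells.

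The pair counts depended on where these few cells were placed. When 300 genes correlating with cell cycle markers were also left out of the clustering, a setting chosen after the data were seen, the lymphatic-like class held 50 cells, 44 of them shared with the main class. Then 8 pairs met the rule, and 3 of them were wholly lymphatic-like: *Mmrn1* with *Thy1* (24 of 24 cells), *Reln* with *Thy1* (21 of 21) and *Prox1* with *Thy1* (18 of 18). *Prox1* with *Mmrn1* gave 26 of 27, *Prox1* with *Reln* 23 of 24, *Thy1* with *Maf* 24 of 25, *Thy1* with *Nr2f2* 19 of 20 and *Mmrn1* with *Reln* 34 of 37. Leaving the cycling cluster out of the main classes gave 7 pairs. Batch 2 alone gave 3 pairs, *Mmrn1* with *Reln*, *Reln* with *Thy1* and *Thy1* with *Nr2f2*, and Batch 1 alone gave 0.

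**Figure D5:**
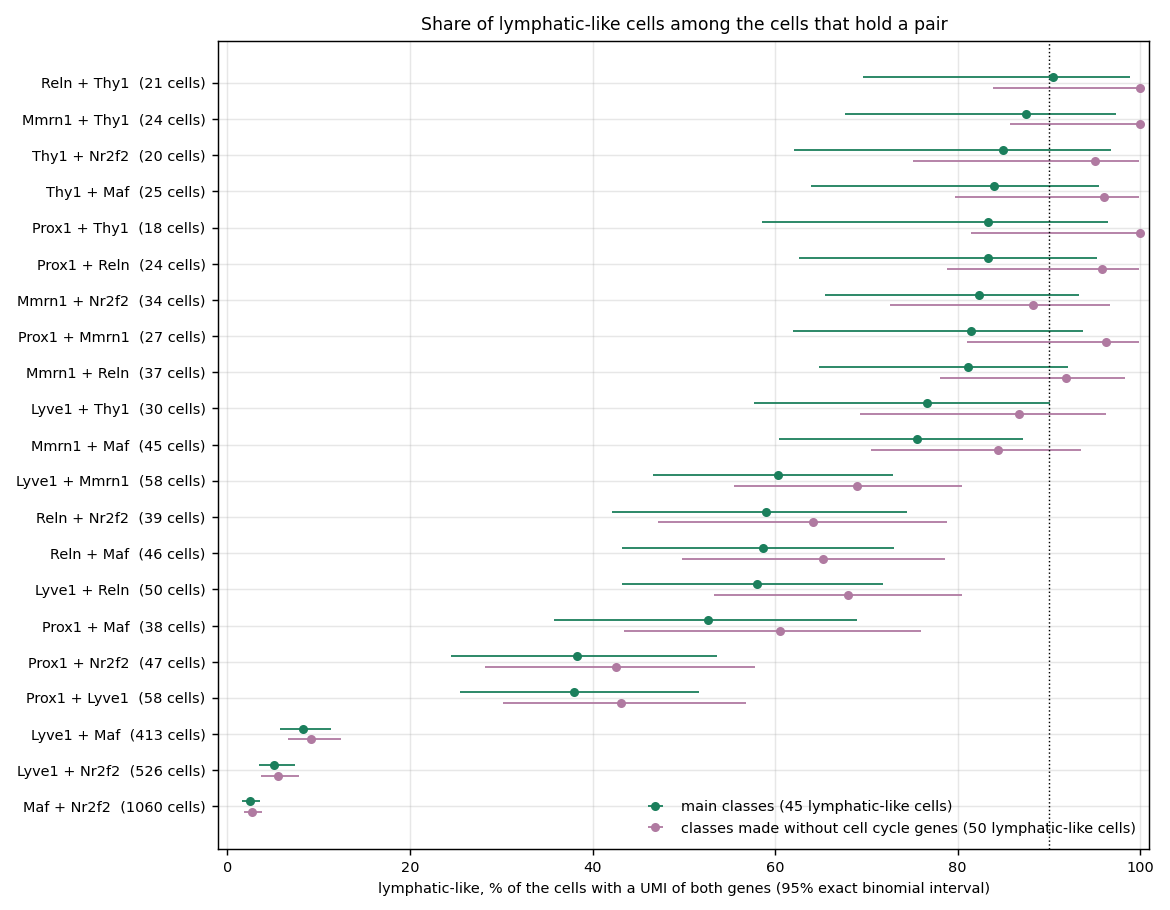
Lymphatic-like percentage of the cells holding each pair (horizontal, with 95% exact binomial intervals) for the main classes and for classes made without cell cycle genes; the dotted line marks 90% and the number of cells with the pair stands beside its name. The 8 pairs that move up to between 91.9 and 100% join *Thy1* with a gene other than *Lyve1*, or *Mmrn1*, *Reln* and *Prox1* with each other. *Lyve1* with *Thy1* stays under 90%, and *Maf* with *Nr2f2* stays under 5%.

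Within the lymphatic-like class the genes were found together to different degrees. Of the 31 cells with *Reln*, 30 also held *Mmrn1*, while 9 held *Mmrn1* without *Reln*, and 39 of all 45 cells held *Mmrn1*. All 23 cells with *Thy1* held *Lyve1*, which 40 of the 45 held. *Prox1* and *Thy1*, found in the fewest of these cells (25 and 23), also had the fewest cells with both of the 4 scarce genes. Both were held by 15 cells, *Prox1* only by 10, *Thy1* only by 8 and neither by 12. Overlap depends on how often each gene was found, and an excess over that was not tested. In Batch 2 the median *Lyve1* count per lymphatic-like cell was 23 UMIs against 7 in Batch 1, and the median *Mmrn1* counts were 4 and 2. The median depths of these cells were 4006 UMIs in Batch 2 and 2674 in Batch 1. Scaled for depth, *Lyve1* stood at 6084 and 2743 CPM and *Mmrn1* at 1117 and 1083 CPM.

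The genes whose levels most resembled each member were taken as the 3 with the highest Pearson r of log2 CPM over the 42 sums of 21 classes in 2 libraries, among 11558 genes with at least 100 UMIs (11559 for *Thy1*), as a description. *Prox1* was closest to *Ptx3* (r = 0.94), *Ccl21b* (0.93) and *Gm10591* (0.93). *Mmrn1* was closest to *Ccl21b* (0.90), *Gm10591* (0.89) and *Ptx3* (0.89). *Thy1* and *Reln* were each closest to *Mmrn1* itself, at 0.92 and 0.86. These values rest on the 2 lymphatic-like sums, the only ones where the genes are high. *Lyve1* went with the general endothelial genes *Egfl7* (0.92), *Myzap* (0.92) and *Tie1* (0.91). *Maf* was closest to its antisense neighbor *Gm15655* (0.83), then to *Vcam1* (0.65) and *Plekho2* (0.65), and *Nr2f2* to *Tshz2* (0.85), *Klhl22* (0.77) and *Lama4* (0.77).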

How the data were processed

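Single cell RNA was measured by Drop-seq in 2 newborn mouse lungs. Per the study's methods the authors aligned reads to mm10 with Bowtie2 2.2.7 and counted unique UMIs per gene over exons; the deposited counts hold cells with at least 500 genes, and the mitochondrial limit was applied here. Counts were scaled per cell to the median UMIs of all cells and log-transformed, and variable genes were scaled within each library. The clusters came from 2000 variable genes, 40 principal components, 20 neighbors and Leiden resolution 2. Clusters were named from marker lists (3 or more markers found). The aerocyte capillary-like class scored nearly alike for aerocyte (1.586) and general capillary markers (1.518). It took its name because its leading genes held 2 aerocyte markers, *Car4* and *Ednrb*, and no general capillary marker. The members, marker lists and pathway list were chosen with earlier results of these data known. Cell labels made by the authors were not used here, and cells were clustered anew without the members. Doublets were scored against simulated pairs and kept, the top 5% being left out as an alternative. Counts summed by class and library (at least 10 cells in each) were tested with edgeR 4.0.16 (TMM, filterByExpr, class and library as terms; R 4.3.3), DESeq2 1.42.0 being an alternative. All sums of a library come from the same mouse, so library served as the replicate block. Over 210 pairs of classes, the differences between libraries correlated with a median r of 0.16 (lowest 0.03, highest 0.54). The fit was tested on simulated data with known changes. Batch 1 gave 4432553 UMIs and Batch 2 18232639. Shares carry exact (Clopper-Pearson) 95% binomial intervals, and a count of 0 allows up to 3 counts. Named genes were the 7 members, the pathway list and, for each member, the 3 genes most like it.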

Additional observations from a re-analysis of the deposited data

Results flagged for a closer look

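The 1941 cells over the 10% mitochondrial limit, 1940 of them from Batch 2, entered no comparison. At least 2 of *Prox1*, *Mmrn1*, *Reln* and *Thy1* occurred in 13 of them (0.670%, exact 95% interval 0.357 to 1.14%), and 11 of the 13 also held at least 3 markers of the lymphatic-like class. Among the kept cells of Batch 2 the share was 26 of 5615 (0.463%, interval 0.303 to 0.678%), and the intervals overlap. The count is given because these cells lie outside every comparison and it exceeds the 3 cells that a count of 0 allows, which says nothing of a difference from the kept cells. All 9 cells over the limit with *Mmrn1* and *Reln* and all 6 with *Prox1* and *Mmrn1* held at least 3 of these markers, against 14 of the 188 with *Maf* and *Nr2f2*. With a limit of 20% the lymphatic-like class held 53 cells, 9 of them over 10%.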

How the results depend on the processing

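The count of members higher in lymphatic-like than in other endothelial cells was 6 in the main fit and 5 to 6 over 15 alternatives, the 5 coming from DESeq2. The fitted change of *Lyve1* was negative without the low-count filter (-0.12) and without the lymphatic-like sum of Batch 2 (-0.33), and its log2 level difference, without a test, was -0.069 in Batch 1 alone and 0.26 in Batch 2 alone. The count of combinations higher outside the class ranged from 16 (DESeq2) to 30. Without the replicate block the 2 counts were 6 and 23 in place of 6 and 24. The count of pairs, 0 in the main classes, was 8 with cell cycle genes left out of the clustering, 7 without the cycling cluster, 5 with at least 2 UMIs of each gene, 4 at a mitochondrial limit of 5%, 3 without doublets, 3 with the members in the clustering, 1 with genes scaled over both libraries, 1 after thinning to 1000 UMIs, and 0 to 3 with 1 library left out. It was 0 at both other resolutions, at a limit of 20% and after thinning to 600 UMIs. After that thinning only 8 lymphatic-like cells held *Thy1*, so its pairs had too few cells to meet the rule, as in Batch 1 alone. The settings without cell cycle genes in the clustering and without the cycling cluster were chosen after the data were seen. So were the sums left out 1 at a time and classes of at least 5 cells. With a whole library left out no residual degrees of freedom remained, so the 2 tests across genes gave values only; where 1 lymphatic-like sum was left out, the other was assumed to vary like the other classes. With 45 lymphatic-like cells, and 4 to 19 cells of Batch 1 behind each of the 18 pairs that are not of *Lyve1*, *Maf* and *Nr2f2* with each other, shares of pairs are known only within wide intervals.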
